A study of Mus musculus with 4 samples.

Results

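The cytosolic ribosomal protein genes were followed in single-nucleus RNA-seq of the basolateral amygdala (BLA). Members were taken by symbol from the 32285 features of the deposited gene tables. A member is a gene named Rpl or Rps with a number and an optional letter or l ending, or Rplp0, Rplp1, Rplp2, Rpsa or Fau. Names ending in -ps and the kinases named Rps6k were left out. The rule found 82 genes, 50 for the large and 32 for the small subunit, spread over 20 chromosomes. In all nuclei together they held 709763 UMIs (unique molecular identifiers, each counted as 1 transcript molecule), or 0.462% of all UMIs.

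Ribosomal proteins are built with ribosomal RNA in the nucleolus into the large and small subunits that translate mRNA in the cytoplasm. Their genes are housekeeping genes, used in every cell type. Their transcripts start with a stretch of pyrimidines (C or T), the 5′ terminal oligopyrimidine element, through which the mTORC1 kinase pathway and the RNA-binding protein Larp1 set how strongly they are translated. Most of their mature mRNA lies in the cytoplasm, so a library of nuclei samples only a part of it.

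The study compared wild-type (WT) mice with DISC1-N mice, both on the C57BL/6J strain. DISC1-N is the name the labels use, with the spelling DISC-N for the genotype, and the construct and the cells that express it are not given there. Mice of both genotypes had received tamoxifen into the abdominal cavity and were killed under isoflurane 6 h later. Each group is a pool of the left and right BLA from 5 mice, whose age and sex are not stated. Each genotype had 2 libraries, numbered replicate 1 and 2 in the labels. Whether these came from separate pools of mice is not stated, so the p-values below may measure technical spread only. Fewer cells of a type and less RNA per cell cannot be told apart in summed counts unless UMIs per nucleus are given.

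The 4 libraries held 37840301 to 48439711 UMIs in 4654 to 8381 barcodes, and any pair of libraries shared 5 to 21 barcodes. After filters 25332 nuclei remained. A nucleus was placed in a class when it had at least 3 UMIs from at least 2 marker genes and at least 80% of its marker UMIs came from one list. This placed 10466 nuclei (41.3%). The 6 classes tested had at least 20 nuclei in every library: excitatory-like, inhibitory-like, astrocyte-like, oligodendrocyte-like, precursor-like (oligodendrocyte precursors) and microglia-like. Endothelial-like nuclei (10, 19, 30 and 42 per library) are given as values only. All markers of each class's own list were detected in it, with a summed level in excitatory-like nuclei of 1045 to 1122 CPM (CPM are UMI counts scaled to the same total in every class and library) and in microglia-like nuclei of 9404 to 12691 CPM. Replicate 1 libraries stood apart from replicate 2 libraries: a chi-square per degree of freedom over genes was 8.73 and 6.02 for the WT and DISC1-N libraries of one number, and 51.5 to 63.7 for pairs across numbers. Disc1, the gene for which the mice are named, had 9.46 and 9.09 CPM in excitatory-like nuclei of the WT libraries and 17.1 and 10.3 CPM in those of the DISC1-N libraries.

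The promoter sequences below show where the longest pyrimidine run lies around the annotated start of members to which the results turn: Fau and Rps26, Rpl13, and the members at the ends of the range of class differences. Each shows 40 bases before and 20 from the transcription start of RefSeq (GRCm38.p6), 5′ to 3′ on the coding strand, with the longest run of C and T in capitals.
Fau, chr19:6057907-6057966, plus strand: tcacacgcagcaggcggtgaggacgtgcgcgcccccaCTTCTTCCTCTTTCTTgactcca
Rpl13, chr8:123102310-123102369, plus strand: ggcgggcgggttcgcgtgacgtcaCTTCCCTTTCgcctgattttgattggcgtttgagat
Rps26, chr10:128626487-128626546, minus strand: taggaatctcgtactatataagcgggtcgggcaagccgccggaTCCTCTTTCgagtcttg
Rpl5, chr5:107900488-107900547, plus strand: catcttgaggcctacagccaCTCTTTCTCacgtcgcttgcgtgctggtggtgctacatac
Rps3, chr7:99483690-99483749, minus strand: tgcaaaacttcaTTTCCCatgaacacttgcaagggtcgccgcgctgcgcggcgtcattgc

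In Fau the run of 16 pyrimidines lay across the start, and in Rps26 a run of 9 followed it within a few bases. In Rpl13 (10 letters), Rpl5 (9) and Rps3 (6) the longest run of the window lay wholly before the RefSeq start. The marked letters are therefore not in a transcript that begins there. GENCODE M21 places the starts of Rpl5 (107900502) and Rps3 (99483738) further upstream, so their marked runs lie inside those gene bounds. Among the 74 RefSeq promoters that matched 62 members, 59 (79.7%) held an unbroken run of at least 8 letters C or T on the coding strand within 50 bases of the start. Such a run was in 35.7% of all 32851 RefSeq promoters given. On the opposite strand the shares were 23.0% of the members' promoters and 38.1% of all. The run is a description of these letters, and no factor's binding was measured.

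Among the 6 tested classes, ribosomal protein transcripts took the smallest share of the RNA in excitatory-like nuclei and the largest in microglia-like nuclei. The summed level of the 82 genes in excitatory-like nuclei was 4191 CPM in WT replicate 1, 3964 in DISC1-N replicate 1, 2706 in WT replicate 2 and 2256 in DISC1-N replicate 2. The same libraries gave 17765, 19042, 13946 and 11581 CPM in microglia-like nuclei, without overlap with the neurons. Within a library the ratio of microglia-like to excitatory-like nuclei was 4.83 ± 0.43 (SD, n = 4 libraries). The other ratios to excitatory-like nuclei were 1.55 ± 0.12 for inhibitory-like, 2.63 ± 0.08 for astrocyte-like, 2.80 ± 0.13 for precursor-like, 3.34 ± 0.055 for oligodendrocyte-like and 4.41 ± 1.07 for endothelial-like nuclei. Among the 6 tested classes this order held in every library except between the neighbours astrocyte-like and precursor-like nuclei, and the place of endothelial-like nuclei varied. Precursor-like over astrocyte-like nuclei was 0.98 to 1.14, endothelial-like over oligodendrocyte-like nuclei 0.93 to 1.66, and endothelial-like over microglia-like nuclei 0.66 to 1.06. Mural-like nuclei, 3 to 9 per library, ran from 7375 to 30228 CPM and were not compared.

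**Figure D1:**
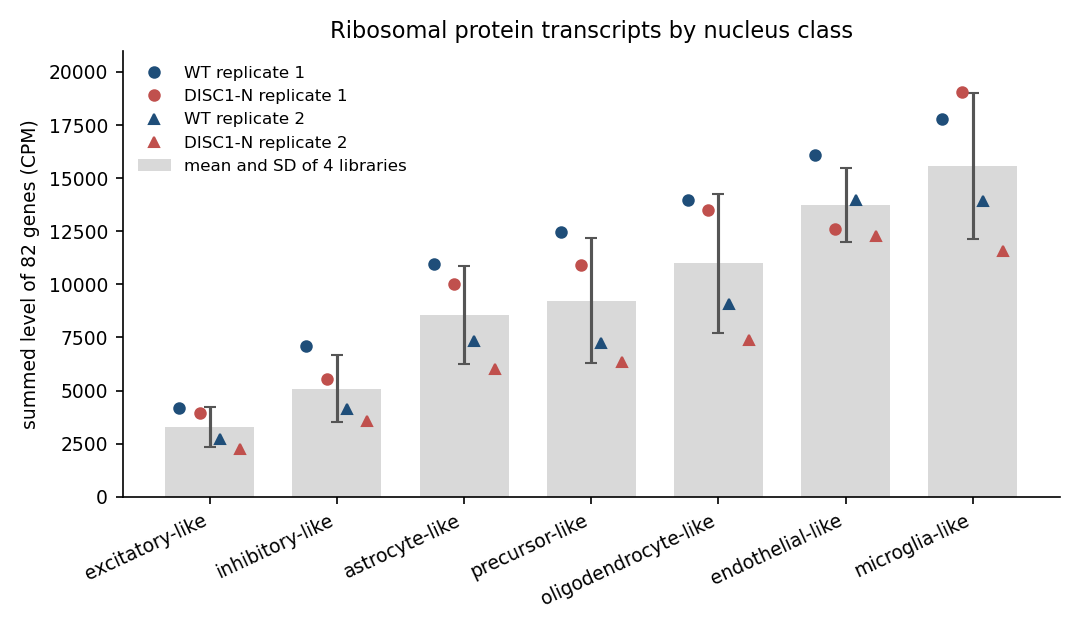
Summed level of the 82 ribosomal protein genes (CPM) in 7 classes of nuclei; bars are the mean and lines the SD of 4 libraries, points are libraries (circles replicate 1, triangles replicate 2, blue WT, red DISC1-N). Excitatory-like nuclei lie between 2256 and 4191 CPM and microglia-like nuclei between 11581 and 19042 CPM.

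Counted per nucleus instead of as CPM, excitatory-like nuclei held the most in each library. Excitatory-like nuclei held on average 43.1, 45.3, 25.0 and 22.8 ribosomal protein UMIs (WT and DISC1-N replicate 1, then WT and DISC1-N replicate 2). Microglia-like nuclei held 24.8, 22.0, 14.4 and 12.5. The glial and endothelial-like classes were close to each other: in replicate 2 their means ran from 12.1 to 14.8 UMIs per nucleus and in replicate 1 from 22.0 to 29.7. The median depth of a nucleus meanwhile ran from 8548 to 9718 UMIs in excitatory-like to 987 to 1316 in microglia-like nuclei. Depth thus mostly moved against the summed level across classes, with the higher level in the shallower nuclei. It did so within classes too: in microglia-like nuclei of WT replicate 2 the shallower nuclei were at 17019 CPM and the deeper ones at 11936 CPM, and the shallower nuclei had the higher level in each of the 6 classes and 4 libraries. After each nucleus was thinned to 1000 UMIs, excitatory-like nuclei kept 5.00, 4.44, 3.11 and 2.57 member UMIs and microglia-like nuclei 17.9, 18.1, 12.2 and 10.5, with 45, 33, 188 and 210 shallower microglia-like nuclei left out.

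**Figure D2:**
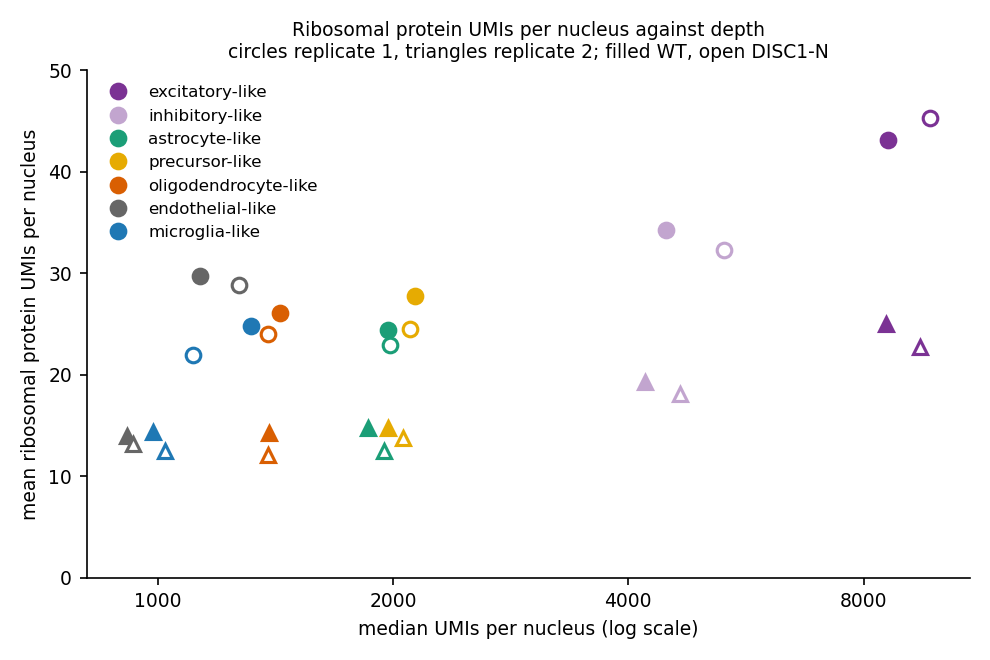
Mean ribosomal protein UMIs per nucleus against the median UMIs per nucleus (log scale) for each class and library; circles are replicate 1, triangles replicate 2, filled symbols WT and open symbols DISC1-N. In replicate 2 the glial and endothelial-like classes lie between 12.1 and 14.8 UMIs per nucleus although their depths differ.

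Transcripts of neurons were also found in nuclei of other classes. Eef1a2, the form of elongation factor 1 alpha used by neurons and muscle, was at 37.0 ± 8.1 CPM in excitatory-like and at 152 ± 59 CPM in microglia-like nuclei (SD, n = 4). In UMIs per nucleus it was at 0.383 ± 0.107 and 0.179 ± 0.079. Markers of excitatory neurons summed to 1045 to 1122 CPM in excitatory-like nuclei and were still at 172 to 351 CPM in microglia-like nuclei, with 0 of 7 markers at 0. The part of free RNA in the class differences was not tested.

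Every member tested shared this direction. In one edgeR quasi-likelihood fit over the 6 classes with library as a block, 12758 genes were tested and 79 of the 82 members passed its filter on low counts; Rpl3l, Rpl39l and Rpl10l did not. Excitatory-like nuclei had 0 members higher and 79 lower than the mean of the other classes at an adjusted p under 0.05, with a median log2 difference of -1.20. Of all genes 34.2% were higher and 32% lower in that comparison, with a median of -0.02. Inhibitory-like nuclei had 0 members higher and 78 lower (median -0.68; all genes 27.2% and 25.2%). In microglia-like nuclei 78 members were higher and 0 lower (median 0.86; all genes 27.2% and 25.3%). Oligodendrocyte-like nuclei had 74 higher (median 0.61; all genes 24.6%), astrocyte-like nuclei 32 (median 0.22; 24.9%) and precursor-like nuclei 9 (median 0.18; 15.4%), and none of these 3 classes had a member lower (all genes 21.1%, 25.1% and 10.5%). The 9 in precursor-like nuclei were not above the share of all genes. That count ran from 2 to 31 with the marker limit, where the shares of all genes are not given.

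The 10 members of highest CPM, which was not divided by gene length, took 23.3% of the members' CPM averaged over the tested classes. Rpl41, the smallest protein of the ribosome, averaged 117 ± 22 CPM in excitatory-like and 452 ± 67.5 CPM in microglia-like nuclei (SD, n = 4). Fau, a ubiquitin-like protein fused to the small subunit protein S30, went from 65.7 ± 18.8 to 383 ± 98 CPM between the same classes. Rpl13, Rpl9, Rpl19, Rpl3, Rps24, Rps2, Rps29 and Rpl27a completed this group.

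Of the 78 members with a mean of at least 20 CPM, all 78 were lowest in excitatory-like nuclei and 77 were highest in microglia-like nuclei. The ratio of the highest to the lowest class mean had a median of 4.95 and ran from 2.83 for Rpl5 to 6.73 for Rps3. Rps3, a small subunit protein at the entry of the mRNA channel, was at 40.6, 32.8, 23.0 and 19.6 CPM in excitatory-like nuclei (WT and DISC1-N replicate 1, then replicate 2). In microglia-like nuclei it was at 249, 211, 164 and 157 CPM, so the classes did not overlap. Rpl5, which with Rpl11 and 5S rRNA forms a particle that joins the large subunit early, was at 43.5, 43.3, 28.7 and 23.6 CPM in excitatory-like and 106, 148, 86.1 and 52.9 CPM in microglia-like nuclei. Here too the groups did not overlap, but the distance was smaller. Besides Rps3 the largest ratios included those of Rps29, Rpl36a, Rpl35, Rpl37, Rplp1, Rpl39, Rpl23 and Rps23, and besides Rpl5 the smallest to Rpl6, Rps2, Rpl29 and Rps12.

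**Figure D3:**
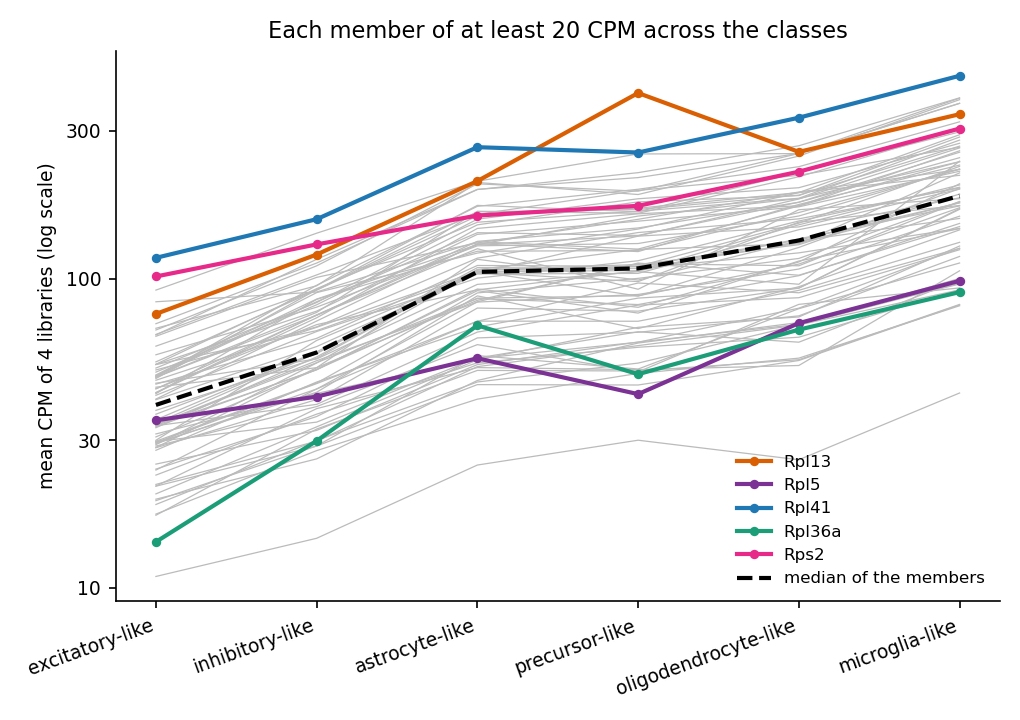
Mean level over 4 libraries (CPM, log scale) of each of 78 ribosomal protein genes in 6 classes of nuclei; grey lines are single genes, coloured lines named genes, the dashed line their median. All 78 lines are lowest in excitatory-like nuclei; Rpl13 alone peaks in precursor-like nuclei, at 398 CPM.

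Rpl13 was the exception to the common order. This large subunit protein was at 490, 451, 321 and 329 CPM in precursor-like nuclei (WT and DISC1-N replicate 1, then replicate 2). In oligodendrocyte-like nuclei of the same libraries it was at 346, 294, 225 and 161 CPM, lower in all 4. Its share of the ribosomal protein UMIs was 4.43% ± 0.56 in precursor-like nuclei and on average at most 2.41% in each of the 5 other tested classes. The precursor-like level exceeded the mean of the other classes by 1.13 ± 0.10 (log2 ± SE, edgeR adjusted p = 1.3e-10). With counts scaled to the sum of the members, the difference was 0.93 ± 0.09 (adjusted p = 2.7e-09). Rpl13 lies on chromosome 8 from 123102350 to 123105244 (GRCm38, plus strand), and no other gene of the files overlaps it.

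Scaling each library and class to its summed member count removed the common shift and left differences in the make-up of the pool. Against this scale excitatory-like nuclei had 16 members higher and 18 lower than the other classes; since all members are read against their own sum, some must rise when others fall. Of all genes 80.1% were higher and 6.33% lower on that scale, the mirror image of the members' common shift. Rpl5 took 1.06% ± 0.02 of the member UMIs in excitatory-like nuclei and 0.61% ± 0.13 in microglia-like nuclei (log2 0.75 ± 0.12, edgeR adjusted p = 8.9e-07). Rpl6, a large subunit protein, took 2.56% ± 0.15 in excitatory-like nuclei (log2 0.70 ± 0.09, adjusted p = 4.5e-08). Rps2, a small subunit protein of the mRNA entry, had 3.20% ± 0.51 and 1.99% ± 0.16 in these 2 classes (0.61 ± 0.09, adjusted p = 2.3e-07). Rps12, Rps15 and Rpl29 followed with log2 differences of 0.52, 0.44 and 0.39.

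At the other end, Rpl36a took 0.41% ± 0.08 of the member UMIs in excitatory-like and 0.83% ± 0.06 in astrocyte-like nuclei. Its differences on the member scale were -0.60 ± 0.12 in excitatory-like (edgeR adjusted p = 2.2e-05) and 0.62 ± 0.11 in astrocyte-like nuclei (adjusted p = 1.9e-05). Rps29, Rpl32, Rplp1 and Rps3 were also lower in excitatory-like nuclei, by log2 differences of -0.47, -0.43, -0.42 and -0.38. Fau, at -0.21, was among the 18. Reads of some of these members may be split or shared. The files count a copy of Rpl36a named Rpl36a-ps1, and Rpl5, Rps2, Rpl32 and Rpl10a overlap another gene of the files on the other strand. GENCODE M21 further lists 23 pseudogene models named for Rps12, 11 for Rps2, 6 for Rpl13 and 6 for Rpl26.

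**Figure D4:**
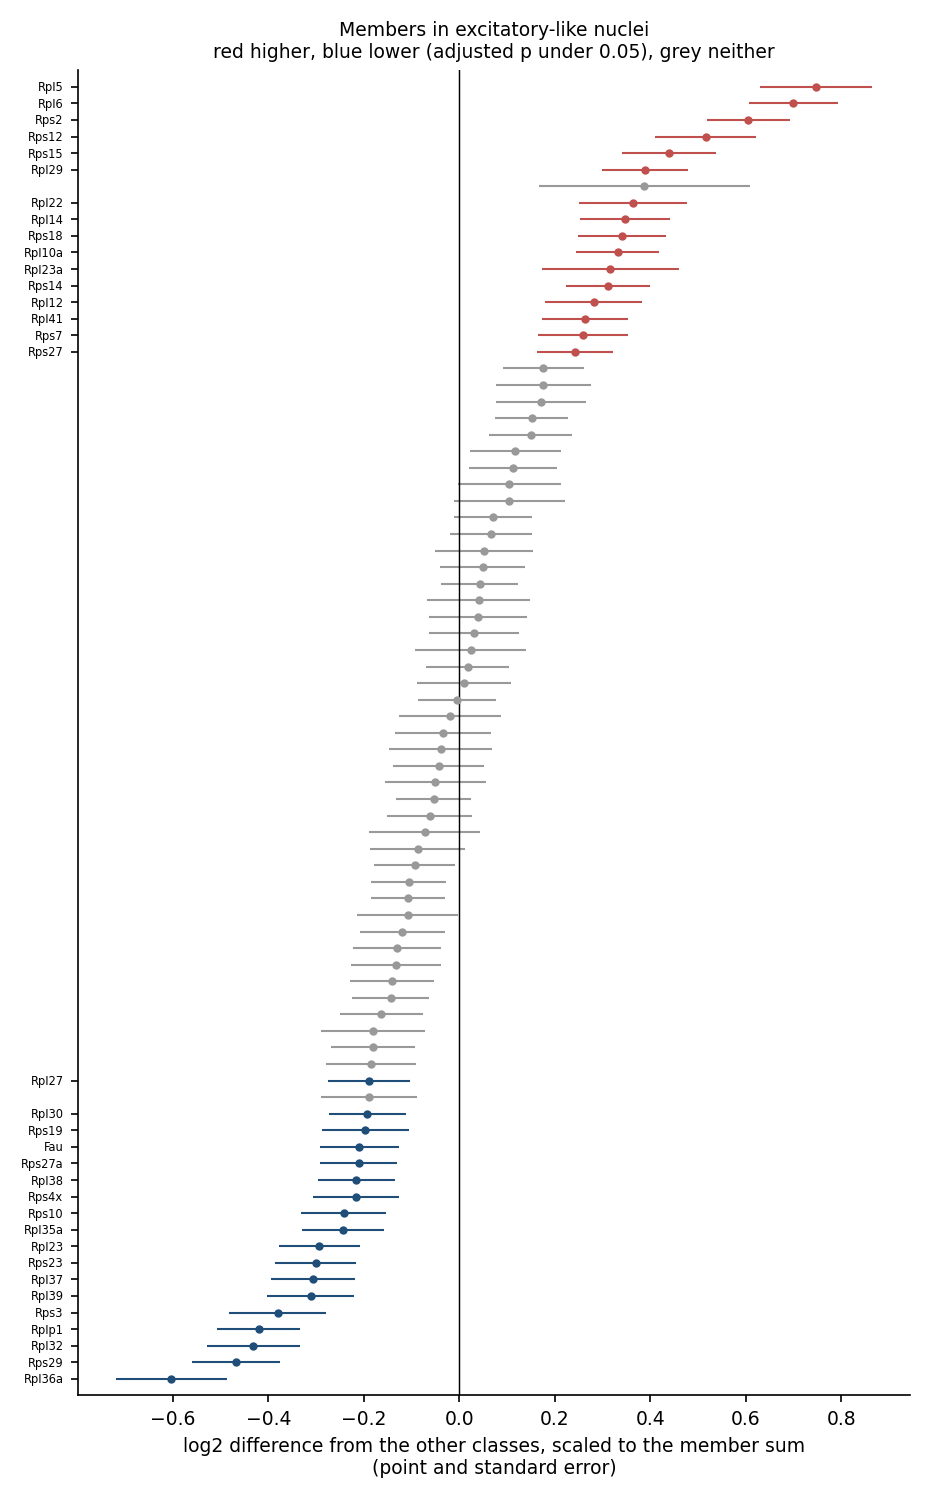
Log2 difference (point, with its standard error as a line) of 79 ribosomal protein genes between excitatory-like nuclei and the other classes after scaling to the summed member count. Members past the threshold are named. The 16 in red, led by Rpl5 at 0.75, are higher and the 18 in blue, led by Rpl36a at -0.60, are lower at an adjusted p under 0.05.

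In the other classes fewer members were called as departing from the pool on this scale, but these classes also had fewer member UMIs. Excitatory-like nuclei had 15093 to 17657 per library and precursor-like nuclei 2059 to 3146. The part of these counts in the number of calls was not tested. Inhibitory-like nuclei had 6 members higher and 3 lower, and microglia-like nuclei 6 and 4. Astrocyte-like and oligodendrocyte-like nuclei had 3 and 3 each, and precursor-like nuclei 2 and 2. Of all genes 65.3% were higher and 6.55% lower on this scale in inhibitory-like, 10.7% and 62.8% in microglia-like, 19.1% and 36.7% in astrocyte-like, 10.4% and 56.6% in oligodendrocyte-like, and 12.3% and 19.5% in precursor-like nuclei. Rpl10a, a large subunit protein, was higher in microglia-like (0.47 ± 0.11, edgeR adjusted p = 0.000303) and lower in oligodendrocyte-like nuclei (-0.55 ± 0.10, adjusted p = 4e-05). Rpl26, a large subunit protein at the exit tunnel, was higher in oligodendrocyte-like nuclei (0.40 ± 0.10, adjusted p = 0.00077). The ratio of large to small subunit transcripts was alike in all tested classes, 1.42 to 1.62 over the 24 sums.

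Paralogues differed widely in level. Rpl3 was at 68.1 ± 22.8 CPM in excitatory-like nuclei and its muscle form Rpl3l at 0.3 ± 0.4 CPM; Rpl3l had 32 UMIs in the tested classes, with its highest level, 4.0 ± 1.2 CPM, in astrocyte-like nuclei. The testis forms Rpl10l and Rpl39l had 0 and 5 UMIs. Rps27 had 65.0 ± 11.2 CPM in excitatory-like nuclei against 5.4 ± 1.5 CPM for Rps27l, a target of p53. The X-linked Rpl36a and its autosomal copy Rpl36al were at 14.1 ± 6.1 and 29.5 ± 9.9 CPM in excitatory-like nuclei but at 70.5 ± 15.5 and 72.7 ± 23.9 CPM in astrocyte-like nuclei. Rpl36al kept to the pool in every class, with log2 differences on the member scale between -0.11 and 0.12, while Rpl36a did not. Rps4x, encoded on the X chromosome, was at 93.2 CPM on average. The stalk proteins Rplp0 and Rplp2, which with Rplp1 recruit elongation factors, and Rpsa, first known as a laminin receptor, kept within 0.19 of the pool.

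Mitochondrial ribosomal protein genes, which serve the ribosomes inside mitochondria, were mostly lower in excitatory-like nuclei as well. Of 77 tested, 52 were lower and 8 higher in excitatory-like nuclei (median -0.55; all genes 32% lower and 34.2% higher). In microglia-like nuclei 24 were higher and 2 lower (median 0.31), a share of higher calls near the 27.2% of all genes, of which 25.3% were lower. Elongation factors resembled the members, with 8 of 10 lower in excitatory-like nuclei (median -0.77) and 8 of 10 higher in microglia-like nuclei (median 0.59). Eef1a1, the general form of elongation factor 1 alpha, was at 78.9 ± 34.5 CPM in excitatory-like and 395 ± 138 CPM in microglia-like nuclei. Initiation factors had 19 of 45 lower and 4 higher in excitatory-like nuclei (median -0.25), to be read against the same shares of all genes. Ribosome biogenesis genes went both ways there, with 10 higher and 6 lower of 29 (median -0.02), not more often than all genes: Nvl, an ATPase of large subunit assembly, was higher by 1.01 ± 0.10 and nucleolin (Ncl) and nucleophosmin (Npm1) were lower, by -1.11 ± 0.10 and -0.98 ± 0.09. Of 12 mTORC1 and translation control genes 3 were higher and 2 lower (median 0.03), and Larp1 was at 0.02 ± 0.09 (adjusted p = 0.95).

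The members were higher in the replicate 1 than in the replicate 2 libraries. Over 78 members the ratio of replicate 1 to replicate 2, averaged over 6 classes within each genotype, had a median of 1.64 and was above 1 for all 78, in every one of 12 class and genotype pairs for 62. It ran from 1.16 for Rps28 to 2.58 for Rplp1. As log2 of replicate 2 over replicate 1, the class medians were -0.90 to -0.33 for the members and -0.08 to -0.01 for all genes, each of at least 20 CPM. Rplp1 in microglia-like nuclei was at 425 and 423 CPM in WT and DISC1-N replicate 1 and at 167 and 178 CPM in replicate 2. Rps27 in the same nuclei was at 245, 211, 226 and 218 CPM, so its replicates overlapped. Mitochondrially encoded transcripts moved the same way, from 1173 and 607 CPM in replicate 1 to 422 and 201 CPM in replicate 2 of excitatory-like nuclei. The summed elongation factors went from 461 and 433 to 348 and 300 CPM there. Mitochondrial ribosomal protein genes went from 1813 and 1906 to 1409 and 1368 CPM, so the shift was not particular to the members. The file headers name different Cell Ranger versions for the 2 replicate numbers. Which of preparation, sequencing and counting moved with the members cannot be told apart.

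Between the genotypes the summed level was lower in DISC1-N in most tested classes, but by less than the difference between the replicate numbers. Within replicate 1 and within replicate 2 the log2 ratio of DISC1-N to WT was -0.08 and -0.26 in excitatory-like, -0.36 and -0.22 in inhibitory-like and -0.13 and -0.29 in astrocyte-like nuclei. It was -0.05 and -0.29 in oligodendrocyte-like, -0.19 and -0.19 in precursor-like, and 0.10 and -0.27 in microglia-like nuclei. The groups overlapped in each of the 6 tested classes. An exact two-sided permutation test over the libraries gave p = 0.667 in 5 classes and 1 in microglia-like nuclei (adjusted over 6 classes 0.8 and 1). The smallest p that 2 against 2 libraries allow in this test is 0.333. It did not use the replicate number, although replicate 1 was 1.27 to 1.83 times replicate 2 within a genotype. The test therefore cannot decide whether the genotypes differ within a replicate number. Mitochondrially encoded transcripts were also lower in DISC1-N excitatory-like nuclei within both numbers (log2 -0.95 and -1.07), and their part in the difference was not tested.

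Ribosomal protein UMIs per nucleus were lower in DISC1-N within both numbers in 5 of the 6 tested classes. The log2 ratios in replicate 1 and 2 were -0.09 and -0.09 in inhibitory-like, -0.09 and -0.24 in astrocyte-like, -0.12 and -0.25 in oligodendrocyte-like, -0.18 and -0.10 in precursor-like and -0.17 and -0.20 in microglia-like nuclei, where the CPM had been higher in replicate 1. Excitatory-like nuclei differed in replicate 1, with 43.1 in WT against 45.3 in DISC1-N, while replicate 2 had 25.0 against 22.8. DISC1-N excitatory-like nuclei were deeper within both numbers, with medians of 9718 against 8596 and 9444 against 8548 UMIs. So were inhibitory-like nuclei (5295 against 4464 and 4661 against 4201.5) and, by less, astrocyte-like nuclei. Oligodendrocyte-like nuclei were slightly shallower in both. Microglia-like nuclei were shallower in replicate 1 (1111 against 1316) and deeper in replicate 2 (1020.5 against 986.5), and precursor-like nuclei also went both ways. The part of depth in the genotype differences was not tested.

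No member changed by genotype in any class in the edgeR fit without the replicate number (0 of 78 or 79 tested in each). The share of all genes called was 0% in both directions in every class. At an unadjusted p under 0.05 this fit had 0 members in excitatory-like, inhibitory-like, astrocyte-like and oligodendrocyte-like nuclei (all genes 0.87%, 1.14%, 0.63% and 0.26%), 2 in precursor-like (1.26%) and 1 in microglia-like nuclei (0.93%). DESeq2 also called 0 members in each class, and its share of all genes is not given. On simulated counts with known changes this fit recovered 0% of 2-fold changes in excitatory-like nuclei. With the replicate number as a block, which the file headers tie to different processing, 75% were recovered, and 11 unchanged genes were called. The simulation gave all genes of a class the same spread, taken from the fit with the block. Its changed genes were drawn from all tested genes, so recovery among the members may differ. The block recovered 70%, 58%, 50%, 21% and 31% in inhibitory-like, astrocyte-like, oligodendrocyte-like, precursor-like and microglia-like nuclei. Of 1.5-fold changes it recovered 46% in excitatory-like nuclei and 40%, 22%, 8%, 1% and 4% in the others in that order. A lack of calls therefore says little about small changes.

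With that block the call in excitatory-like nuclei was 1 of 79 members lower and 0 higher, where 0.388% and 0.201% of all genes were called. The member was Rps26, a small subunit protein at the mRNA exit. Replicate 1 gave 48.1 CPM for WT and 33.7 CPM for DISC1-N, and replicate 2 gave 31.5 and 21.8 CPM. DISC1-N was lower within each number, but the groups overlapped, since DISC1-N replicate 1 exceeded WT replicate 2. The log2 difference was -0.51 ± 0.13 with the block (adjusted p = 0.042) and -0.51 ± 0.26 without it (unadjusted p = 0.0778). The call was lost with the block in nuclei under 1% mitochondrial UMIs (-0.51), at marker limits of 60% (-0.35) and 95% (-0.41) and on the scale of the member sum (-0.35).

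Rpl23, a large subunit protein that also binds Mdm2, came next in excitatory-like nuclei with 65.9 and 49.8 CPM in WT and DISC1-N replicate 1 and 32.8 and 22.6 in replicate 2 (-0.45 ± 0.12 with the block, edgeR adjusted p = 0.065). Rpl15 and Rps7 had -0.35 ± 0.12 and -0.32 ± 0.11 with the block (adjusted p = 0.296 and 0.322). In inhibitory-like nuclei 0 members were called with the block, where 0.145% of all genes were called lower and 0.00855% higher. At an unadjusted p under 0.05 there were 28 of 79 members in inhibitory-like nuclei (all genes 7.68%) and 19 of 79 in excitatory-like nuclei (all genes 7.33%). Rpl19, a large subunit protein, had the lowest p with the block in inhibitory-like nuclei (-0.50 ± 0.12, edgeR adjusted p = 0.149). Its WT and DISC1-N levels in those nuclei were 158 and 110 CPM in replicate 1 and 107 and 73.6 CPM in replicate 2. Both DISC1-N libraries were lower than the WT library of the same number, and DISC1-N replicate 1 lay just above WT replicate 2.

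The remaining classes had 0 members called with the block (edgeR), which in simulated counts recovered 1% to 22% of 1.5-fold changes there. Of all genes 0.00865% were lower in astrocyte-like nuclei, 0.0784% higher and 0.0392% lower in oligodendrocyte-like nuclei, 0.0486% higher and 0.0162% lower in precursor-like nuclei, and 0.0145% lower in microglia-like nuclei. Unadjusted p under 0.05 was reached by 15 of 79 members in astrocyte-like (all genes 7.24%), 7 of 79 in oligodendrocyte-like (5.60%), 8 of 78 in precursor-like (5.65%) and 3 of 78 in microglia-like nuclei (3.66%). In microglia-like nuclei the share of members was near that of all genes. Rpl23 led in astrocyte-like nuclei, at 195 and 140 CPM in replicate 1 and 106 and 74.4 in replicate 2 (-0.46 ± 0.14, adjusted p = 0.56). Rpl7a, a large subunit protein, led in oligodendrocyte-like nuclei (-0.63 ± 0.22, adjusted p = 0.575) and Rpl12, a protein of the stalk base, in microglia-like nuclei (-0.87 ± 0.32, adjusted p = 0.999). Rps10, a small subunit protein, had 197 (WT) and 122 CPM (DISC1-N) in replicate 1 and 108 and 61.7 CPM in replicate 2 of precursor-like nuclei. DISC1-N was lower within each number and the groups overlapped (-0.74 ± 0.27, edgeR adjusted p = 0.676).

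Most members were lower in DISC1-N in the fit with the block, least clearly in microglia-like nuclei, and Rps26 in excitatory-like nuclei was the 1 member called. With the block, 73 of 79 members were below 0 in excitatory-like nuclei (median -0.16) and 75 of 79 in inhibitory-like nuclei (median -0.25), where the medians of all genes were -0.004 and -0.003. The medians were -0.18, -0.17, -0.19 and -0.10 in astrocyte-like, oligodendrocyte-like, precursor-like and microglia-like nuclei. Below 0 were 71 of 79, 62 of 79, 61 of 78 and 53 of 78 members there. Of all genes 49.0% to 51.1% were below 0 in the tested classes. Of the members with at least 20 CPM in a class, DISC1-N was lower within both replicate numbers for 50 of 71 (70.4%) in excitatory-like nuclei, where 31.8% of all genes were. The counts were 63 of 77 in inhibitory-like (all genes 31.4%), 52 of 78 in astrocyte-like (30.2%), 42 of 78 in oligodendrocyte-like (28%), 40 of 78 in precursor-like (26.9%) and 21 of 79 in microglia-like nuclei (25.5%). The microglia-like count was near the share of all genes: 27 of 79 members were lower in replicate 1 and 64 in replicate 2. Both DISC1-N libraries lay below both WT libraries for 1 member in excitatory-like nuclei (all genes 9.76%) and for 4, 4, 3, 6 and 6 in the others in the order above (12.5%, 9.65%, 8.73%, 13.6% and 12.3% of all genes), shares below those of all genes. Since the members were higher in replicate 1, DISC1-N replicate 1 tended to exceed WT replicate 2, so these shares say little about genotype. The members share a library and its scale and are not independent.

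**Figure D5:**
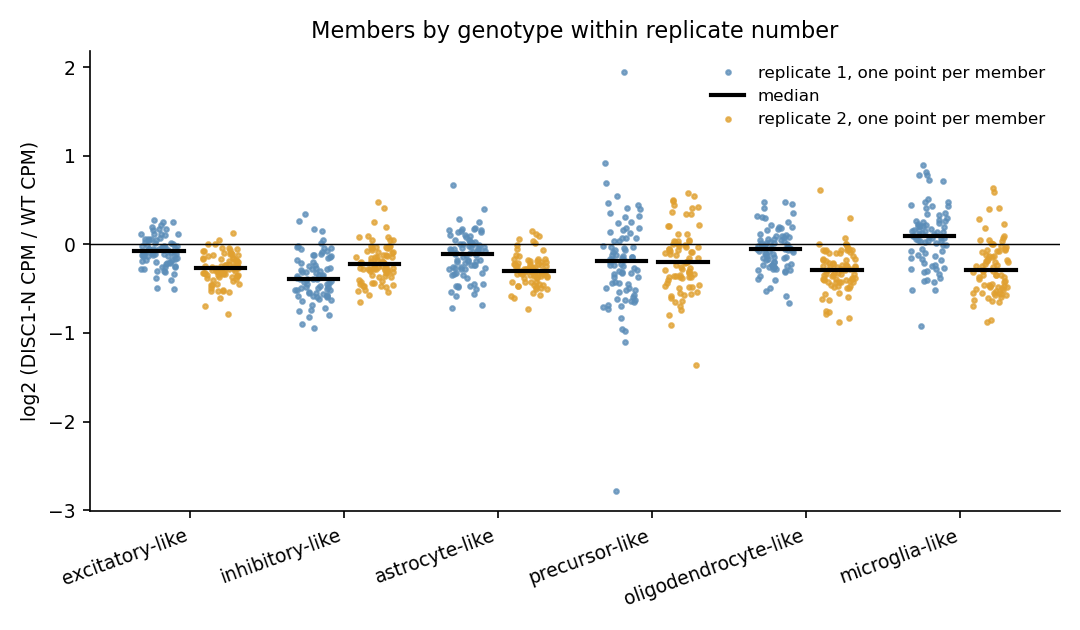
Log2 ratio of DISC1-N to WT level (CPM) for each of 78 ribosomal protein genes in 6 classes, within replicate 1 (blue) and replicate 2 (orange); black lines are medians. The medians lie below 0 except in microglia-like nuclei of replicate 1.

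On the scale of the member sum the shift vanished by construction. No member's genotype difference in another class was called as different from that in excitatory-like nuclei (0 of 79 in each of 5 classes, edgeR interaction term). Of all genes 0.0217% were called higher and 0.0217% lower in inhibitory-like nuclei, and at most 0.0507% in one direction in any class. On simulated counts this fit recovered 11% of 1.5-fold and 49% of 2-fold changes in astrocyte-like nuclei, so small differences could be missed. Those counts had the same spread for every gene and lacked the class and replicate differences of the data, so recovery in the data may differ. At an unadjusted p under 0.05 there were 3, 0, 3, 2 and 7 members in inhibitory-like, astrocyte-like, oligodendrocyte-like, precursor-like and microglia-like nuclei, where 3.19%, 4.84%, 4.47%, 4.18% and 3.90% of all genes were. The counts in the first 4 of these classes were near or below those shares.

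Of the other translation genes, 1 was called for genotype in any class by the edgeR fit with the block. Eef1b2, the exchange factor of elongation factor 1, had 49.1 (WT) and 32.8 CPM (DISC1-N) in replicate 1 and 26.0 and 17.9 CPM in replicate 2 of excitatory-like nuclei (adjusted p = 0.031). DISC1-N was lower within each number and the groups overlapped. Mitochondrial ribosomal protein genes had 0 of 78 called and a median of -0.03 in excitatory-like nuclei, ribosome biogenesis genes 0 of 30 and -0.01, initiation factors 0 of 45 and -0.01, and mTORC1 and translation control genes 0 of 12 and -0.04.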

How the data were processed

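Nuclei of mouse BLA were profiled by 10x single-nucleus RNA-seq in 4 libraries. The authors deposited matrices of UMI counts per gene and barcode. Per the file headers they were made with Cell Ranger 7.0.0 for the replicate 1 and 6.0.2 for the replicate 2 libraries, and the submitters' processing notes give 7.0.0 throughout. The treatment of intronic reads is not given in the sources used here. Nuclei under 500 genes or above 5% mitochondrial UMIs were dropped, and 1518 were removed as doublets by Scrublet score at 0.8% per 1000 nuclei (scanpy 1.11.5). Counts were summed per class and library. edgeR 4.0.16 (R 4.3.3, quasi-likelihood test, TMM scaling, Benjamini-Hochberg adjustment over all genes tested) compared genotypes, first without a block and then blocking on replicate number, classes with library as a block, and the genotype difference between classes. DESeq2 1.42.0 was an alternative. Deviations of same-numbered libraries correlated at 0.27 to 0.76 in the 6 classes, and the headers give each number its own Cell Ranger version, so values with the block are printed too. Fits were tested on simulated data. Gene positions come from GENCODE M21.

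Members and lists were chosen with earlier results of these data known. Named by rule were the members of highest and lowest level, of largest and smallest class ratio, of lowest p for genotype, and the paralogues and stalk proteins; of other lists, the genes of lowest p or highest level. Members named from the scaled comparison or the replicate ratio, and Nvl, Ncl, Npm1 and Larp1, were picked after their values were seen. Alternatives changed scaling, filters, marker limits, doublet removal, depth and the libraries used. A few members are not reported here.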

Additional observations from a re-analysis of the deposited data

How the results depend on the processing

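Depth limits the smaller classes, and 2 libraries per genotype limit every genotype result. Against 0 members called for genotype in excitatory-like nuclei, the replicate block gave 1, as it did with at least 1000 genes, thinned counts, nuclei up to 3 times the median UMIs or DESeq2 size factors, and it gave 2 without doublet removal. In inhibitory-like nuclei the block gave 1 with at least 1000 genes and 1 without doublet removal, against 0. Scaling to the member sum took the median genotype difference from -0.29 to -0.0045 in inhibitory-like nuclei (0.0069 with the block), from -0.17 to 0.0092 in astrocyte-like (0.0153 with the block), from -0.20 to -0.0126 in precursor-like (-0.0117 with the block) and from -0.09 to 0.0087 in microglia-like nuclei, by construction. In microglia-like nuclei with at least 1000 genes it was -0.28. Scaled to the member sum, the members higher and lower than in other classes were 16 and 18 in excitatory-like, 6 and 3 in inhibitory-like, 3 and 3 in astrocyte-like, 3 and 3 in oligodendrocyte-like, 2 and 2 in precursor-like and 6 and 4 in microglia-like nuclei. Members higher in astrocyte-like nuclei fell from 32 to 18 at a 95% marker limit. Those higher in precursor-like nuclei went from 9 to 3 without an expression filter, 31 at 60%, 2 at 95% and 16 under 1% mitochondrial UMIs. The cause was not tested. Apart from the block alone and the scale of the member sum, shares of all genes called are not given for these alternatives. Those counts therefore describe the members only.

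Leaving out 1 library in turn gave medians of -0.55 to 0.19 in excitatory-like, -0.63 to 0.10 in inhibitory-like, -0.54 to 0.14 in astrocyte-like, -0.56 to 0.21 in oligodendrocyte-like, -0.58 to 0.22 in precursor-like and -0.46 to 0.29 in microglia-like nuclei. The log2 ratio of the sums ran from -0.61 to 0.20, -0.66 to 0.14, -0.61 to 0.13, -0.64 to 0.23, -0.64 to 0.26 and -0.45 to 0.26 in the same order. Values above 0 came without WT replicate 1 or without DISC1-N replicate 2. Leaving out any 1 library makes genotype and replicate number partly coincide, so the values below 0 carry the replicate difference too. In excitatory-like nuclei Rpl15 ran from -0.93 to 0.13, Rpl23 from -1.04 to 0.078 and Rps7 from -0.72 to 0.075. Members higher in astrocyte-like nuclei ran from 16 to 39 and in precursor-like nuclei from 5 to 8, again without the shares of all genes. Of the main results with 1 library left out, 84 values stayed similar, 13 moved and 23 changed sign. Of the main results under the other alternatives, 343 values stayed similar, 29 moved and 4 changed sign. Similar meant a count of calls of like size, no calls in both included, a median within 0.162 of the main value, or a ratio of sums of the same sign.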
